A study of Mus musculus with 6 samples.

Results

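Accessible chromatin was examined at 10 genes that make retinoic acid, break it down, carry it or bind it as receptors: *Aldh1a1*, *Aldh1a2* and *Aldh1a3*, *Cyp26a1*, *Cyp26b1* and *Cyp26c1*, *Rara*, *Rarb* and *Rarg*, and *Crabp2*. A region was assigned to a gene when its strongest summit had that gene as the nearest protein-coding transcription start site (TSS), at most 50 kb away. This gave 112 intervals out of 190365 in the peak lists of both genotypes, 50 of 82885 in parent neural stem/progenitor cells (NSPCs) and 62 of 107480 in ΔSRR2–18 NSPCs. Just inside the distance limit lay an *Aldh1a1* region of the parent list at 48.3 kb (fold enrichment 12.2) and a *Rarb* region of the ΔSRR2–18 list at 49.2 kb (fold enrichment 10). Just outside it lay 1 *Aldh1a3* region found in both lists, at 50.3 kb in parent NSPCs (fold enrichment 18.4) and 50.1 kb in ΔSRR2–18 NSPCs (fold enrichment 16).

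Retinoic acid is a small lipid signal made from vitamin A in successive oxidation steps, the last of which is run by the ALDH1A enzymes. CYP26 enzymes oxidize it for removal, CRABP2 carries it to the nucleus, and the receptors RARα, RARβ and RARγ bind DNA with RXR partners at direct repeats known as retinoic acid response elements. In the embryo the signal patterns the hindbrain and spinal cord, and several of these genes, such as *Rarb* and *Cyp26a1*, are themselves well-known targets of the receptors.

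Both lines were derived from 129S1/Cast F1 hybrid mouse embryonic stem cells that carry an mCherry tag at *Sox2* on the 129 allele. The parent line (clone 5B) has no deletion, and the ΔSRR2–18 line (clone 47D) lacks the *Sox2* regulatory regions SRR2 to SRR18 on both alleles. Each genotype was thus 1 clone, assayed by ATAC-seq in 3 cultures kept in N2B27 medium with EGF and bFGF on poly-d-lysine and laminin, a medium to which no retinoid was added. ATAC-seq uses a transposase to mark DNA that is not wrapped in nucleosomes.

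The deposited peak lists pool the 3 cultures of a genotype, so no value has a replicate error, no difference was tested, and a difference between genotypes cannot be told apart from one between clones or pools. Judged by the lowest backgrounds, the parent pool was 1.98 times deeper than the ΔSRR2–18 pool, yet its list was the shorter one. The median local background over shared regions gave 2.34 in place of 1.98, which would raise every ratio below. Ratios of summit reads are given with an exact 95% interval for 2 Poisson counts, which covers counting error only. A region absent from a list fell short of the peak threshold there, which does not mean that its DNA was closed. The deleted interval at *Sox2* held 4 parent regions and 0 ΔSRR2–18 regions. All 8 neural stem/progenitor marker promoters were open in both lists, while 1 of 4 pluripotency promoters was open in each. Promoters of 1 of 3 epithelial and 1 of 2 endodermal markers were open in parent NSPCs, against 3 of 3 and 2 of 2 in ΔSRR2–18 NSPCs. Neuron markers gave 2 of 4 in parent and 3 of 4 in ΔSRR2–18 NSPCs, and astrocyte markers 1 of 3 and 0 of 3. In both lists 1 of 3 oligodendrocyte and 3 of 4 neural crest and mesenchyme promoters were open. The part of other cell types in the results below was not tested.

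Direct repeats of the receptor half-site were found in or beside the open chromatin of 4 genes. The half-site was taken as AGGTCA or the variant AGTTCA, and likewise as GGGTCA or its own variant GGTTCA, with the copies spaced by 5 bases (DR5), 2 bases (DR2) or 1 base (DR1). The 3 DR5 and the DR2 found are printed because they are the letters that retinoic acid receptors are known to bind, and no DR1 was found in the regions or RefSeq promoters of these genes. Each is read 5′ to 3′ along the gene's strand (GRCm38, which is mm10), with the half-sites in capitals.
*Rarb*, chr14:16575507-16575535, minus strand, DR5: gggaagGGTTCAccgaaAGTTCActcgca
*Cyp26a1*, chr19:37697770-37697797, plus strand, DR5 on the opposite strand: taaagaTGAACTttgggTGAACTaattt
*Rara*, chr11:98959968-98960064, plus strand, DR5: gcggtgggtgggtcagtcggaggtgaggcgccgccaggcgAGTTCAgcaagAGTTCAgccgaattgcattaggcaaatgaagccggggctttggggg
*Crabp2*, chr3:87947485-87947578, plus strand, DR2: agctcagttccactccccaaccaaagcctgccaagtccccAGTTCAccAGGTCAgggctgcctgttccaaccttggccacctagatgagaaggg

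From the RefSeq start of *Rarb*, the first base of its repeat was at −53 bp, which is upstream. The *Rarb* repeat lay 22 bp downstream of the nearest GENCODE start, inside the promoter region of both lists. That of *Rara* lay 396 bp upstream of the *Rara-202* start and inside a single parent region (chr11:98959487-98960737), whereas the ΔSRR2–18 list had 2 regions there, chr11:98959487-98959988 and chr11:98960169-98960725, with the repeat in the gap between them. At *Cyp26a1* the repeat lay 14 bp upstream of the start, outside both lists, and 14 bases separated it from the edge of a region found only in ΔSRR2–18 NSPCs. The *Crabp2* repeat lay 1135 bp upstream of the start, inside a region that only the ΔSRR2–18 list held. Among 32851 RefSeq promoter sequences of 1 fixed length in GRCm38, 0.0974% held such a DR5 on either strand. The RefSeq table covered 8 of the 10 genes with 13 promoters, of which 2 held 1, at *Cyp26a1* and *Rarb*. The *Rara* and *Crabp2* repeats came from a search of whole regions. Among all regions within 50 kb of a protein-coding TSS, 0.222% to 0.289% of a class held a DR5 and 0.263% to 0.318% a DR2. A match is a run of letters and not evidence that a receptor was bound.

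The promoters of 4 of the 10 genes differed between the lists. A promoter was called open when a region reached within 1 kb of an annotated TSS. By this measure 6 genes had an open promoter in parent NSPCs and 8 in ΔSRR2–18 NSPCs, where all protein-coding genes gave 61.8% and 65.2%. *Aldh1a2*, *Cyp26a1* and *Crabp2* were open only in the ΔSRR2–18 list, as were 6.07% of protein-coding genes. *Aldh1a1* was open only in the parent list, as were 2.59% of them. *Cyp26c1* was open in neither, and *Aldh1a3*, *Cyp26b1*, *Rara*, *Rarb* and *Rarg* were open in both. When the longer ΔSRR2–18 list was shortened to the length of the parent list, *Aldh1a1* and *Aldh1a2* kept their calls. By fold enrichment *Crabp2* and *Cyp26b1* were then no longer open in ΔSRR2–18 NSPCs, and by −log10 p *Cyp26a1* was not.

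*Aldh1a2* encodes RALDH2, the main source of retinoic acid in the early embryo. Its single annotated start was covered in ΔSRR2–18 NSPCs by a wide region (chr9:71215192-71216743) with a fold enrichment of 10 over local background and 334 reads stacked at the summit. The parent list held nothing within 1 kb of this start.

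*Cyp26a1* encodes a retinoic acid hydroxylase whose gene responds to retinoic acid itself. In ΔSRR2–18 NSPCs a region (chr19:37697807-37699246) ran from the first exon into the gene body, with its summit in a coding exon 1104 bp downstream of the start, a fold enrichment of 7.56 and 171 summit reads. It was a modest region, with a place in the top 69.4% of the ΔSRR2–18 list by fold enrichment. The parent list had no region reaching within 1 kb of the start.

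*Crabp2* encodes the cytoplasmic carrier that delivers retinoic acid to its receptors. The ΔSRR2–18 list held 3 regions within 1 kb of its start and the parent list none. The region over the start (chr3:87948109-87948777) had a fold enrichment of 4.17 and 448 summit reads, the upstream one with the DR2 (chr3:87947420-87947985) had 2.91 and 322 reads, and the downstream one in the intron (chr3:87949613-87950513) had 5.09 and 543 reads. The local background beside all 3 was high, at 106 to 110 reads, where the lowest background in the ΔSRR2–18 list was 19.7.

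*Aldh1a1* encodes another retinaldehyde dehydrogenase. It showed the opposite arrangement at its upstream start, *Aldh1a1-206*. A parent region there (chr19:20491898-20493004) had a fold enrichment of 14.8 and 725 summit reads, which is 367 reads at the depth of the ΔSRR2–18 pool. The summit of this region lay in an intron of *C730002L08Rik*, another gene that overlaps this start. The ΔSRR2–18 list held no region there. Its own strong region lay inside the gene, with the summit 3996 bp downstream of that start (chr19:20496298-20497045, fold enrichment 27, 614 reads). The downstream start had no region within 1 kb in either list.

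**Figure D1:**
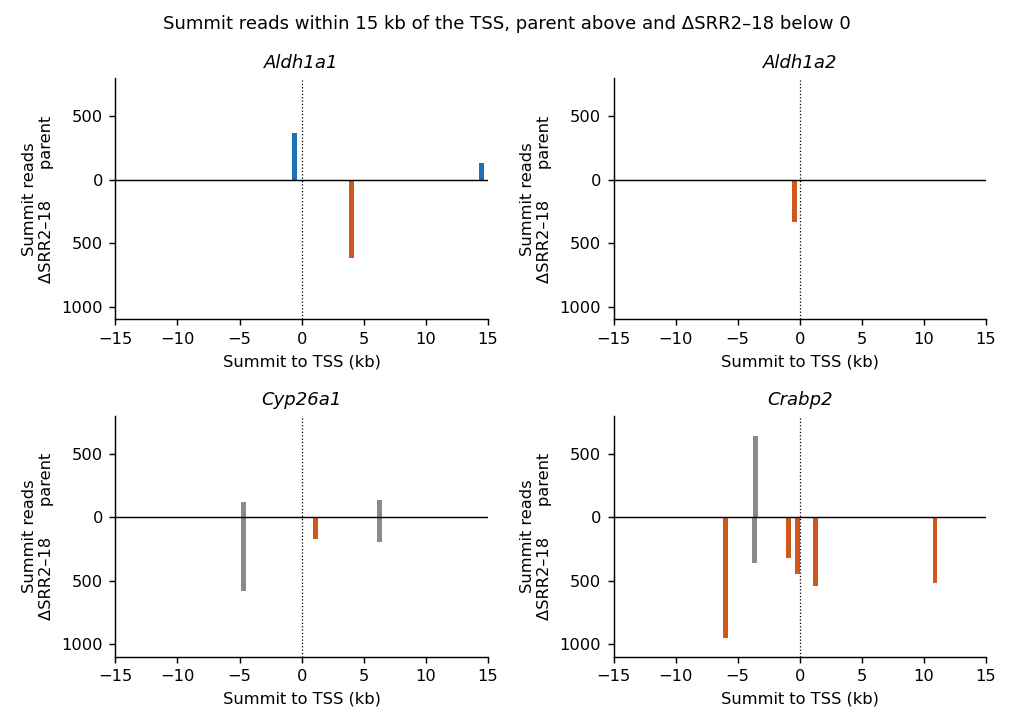
Summit reads (y axis) against the distance of the summit from the TSS in kb (x axis) at *Aldh1a1* (upstream start), *Aldh1a2*, *Cyp26a1* and *Crabp2*, with parent reads scaled to the ΔSRR2–18 depth drawn upward and ΔSRR2–18 reads downward. Blue bars are regions of the parent list only, orange bars of the ΔSRR2–18 list only and grey bars of both. The bar at or nearest to the start stands on the parent side alone for *Aldh1a1* (367 reads) and on the ΔSRR2–18 side alone for the other genes.

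Regions of 1 genotype only were about as common around these genes as around other genes. Of the 50 parent regions, 23 (46%) overlapped nothing in the ΔSRR2–18 list, where the share over all parent regions within 50 kb of a protein-coding TSS was 45%. Of the 62 ΔSRR2–18 regions, 35 (56.5%) overlapped nothing in the parent list, where the share over all was 53%. These shares are near the background and say nothing particular about the 10 genes. The regions of 1 list were spread unevenly among the genes. At *Crabp2* there were 0 of the parent and 5 of the ΔSRR2–18 list alone, at *Rarb* 3 and 8, at *Cyp26c1* 0 and 3, at *Cyp26b1* 2 and 4, at *Cyp26a1* 0 and 2, and at *Aldh1a1* 6 and 6. The parent list had more of its own at *Aldh1a2* (3 against 2), *Aldh1a3* (3 against 1), *Rara* (5 against 4) and *Rarg* (1 against 0). With both lists at equal length by fold enrichment, the deletion-only minus parent-only count went from 5 to 0 at *Crabp2* and from −1 to −8 at *Rara*, and within 10 kb it went from 5 to 0 at *Rarb*.

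**Figure D2:**
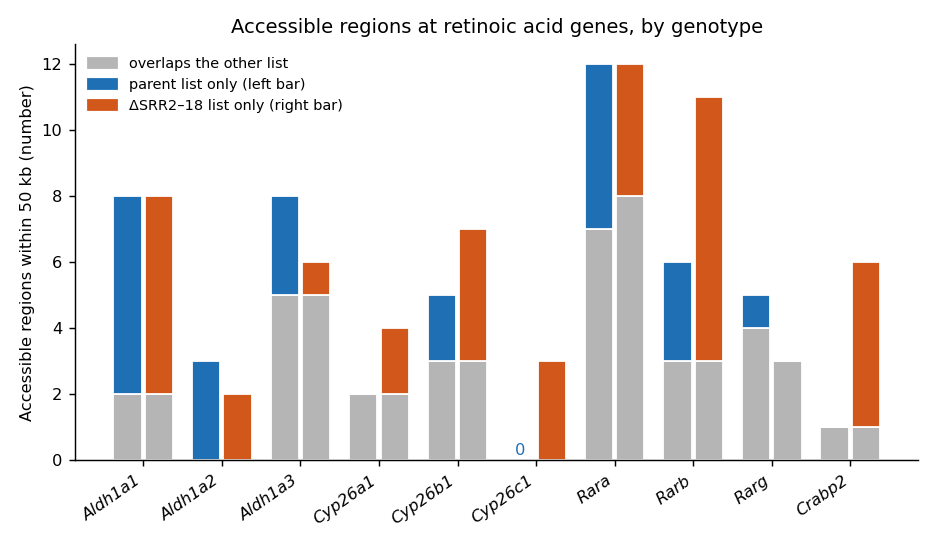
Number of accessible regions within 50 kb (y axis) for each gene (x axis), with parent NSPCs on the left and ΔSRR2–18 NSPCs on the right of each pair. Grey marks regions that overlap the other list and colour those that do not, so that *Cyp26c1* shows 0 parent regions and *Rarb* rises from 6 to 11.

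Among the 3 synthesis genes, *Aldh1a1* shared only 2 of its 8 regions in each list. The parent list alone held a region over a coding exon 32.5 kb beyond the downstream start (chr19:20634158-20634893) with a fold enrichment of 30.2, the highest of any parent region described here, and 1426 summit reads (722 at the ΔSRR2–18 depth). In the other direction, an intronic region of the ΔSRR2–18 list 37.4 kb beyond the upstream start (chr19:20529849-20530722) had a fold enrichment of 24 and 667 reads. The gene thus had 6 regions of its own in each list, at different places. *Aldh1a2* shared no region at all. Its highest parent-only region lay 29.8 kb into the gene (chr9:71245333-71245811, fold enrichment 14.5, 689 reads, 349 at equal depth), in an intron, and its other deletion-only region was an intronic one 38.9 kb from the start with a fold enrichment of 6.49 and 133 reads.

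*Aldh1a3*, a synthesis gene used in the developing eye and nose, kept 5 shared regions. Its promoter had 3762 parent reads (1904 at equal depth) and 971 ΔSRR2–18 reads at the summit (chr7:66427171-66428194 in parent NSPCs), with fold enrichments of 20.8 and 18.4, the highest of its shared regions. The highest of its 3 parent-only regions lay 24.5 kb upstream (chr7:66451219-66452370, fold enrichment 7.41, 731 reads), and the sole deletion-only region lay 11.8 kb inside the gene (chr7:66413557-66414145, fold enrichment 11.6, 277 reads).

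The clearance genes *Cyp26a1* and *Cyp26c1* are neighbours on chromosome 19 and point the same way, and every genotype-only region at either was a ΔSRR2–18 region. At *Cyp26c1* there were 3, all away from the start. The highest (chr19:37676523-37677019), 8.84 kb upstream in an intron of *Exoc6*, had a fold enrichment of 16.5 and 1220 reads, the next had 12 and 899 reads at 12 kb upstream in *Exoc6*, and the lowest had 9.68 and 475 reads in a *Cyp26c1* intron. No parent region was assigned to *Cyp26c1*. At *Cyp26a1* the highest deletion-only region lay 41 kb downstream, between genes (chr19:37738558-37738973, fold enrichment 12.5, 258 reads), and the highest shared one of the ΔSRR2–18 list 4.69 kb upstream, over a coding exon of *Cyp26c1* (fold enrichment 11.3). In parent NSPCs the highest shared one lay 6.31 kb downstream (fold enrichment 6.6).

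*Cyp26b1*, the clearance enzyme most used in hindbrain and limb, had 3 shared regions around its starts, of which the highest in ΔSRR2–18 NSPCs was an intronic one 1806 bp upstream of *Cyp26b1-204* (fold enrichment 9.89, and 8.38 in parent NSPCs). In parent NSPCs the highest was another intronic one, 4.14 kb downstream of *Cyp26b1-205* (fold enrichment 8.96, and 8.72 in ΔSRR2–18 NSPCs). The region over *Cyp26b1-205*, a start inside the gene, had 865 parent reads (438 at equal depth) and 396 ΔSRR2–18 reads. That difference was within counting error (ratio 0.905, 95% interval 0.801 to 1.02). The starts at the upstream end of the gene had no region within 1 kb in either list. A parent-only region 455 bp from *Cyp26b1-204* (chr6:84588908-84589408) had a fold enrichment of 5.51 and 931 reads, but the longer optimal list of ΔSRR2–18 NSPCs did hold a region there. All 4 deletion-only regions lay downstream, from 12.2 to 26.3 kb. The farthest of them (chr6:84561052-84561706), between genes, had the most summit reads of all 35 deletion-only regions, 1691, at a fold enrichment of 20.

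**Figure D3:**
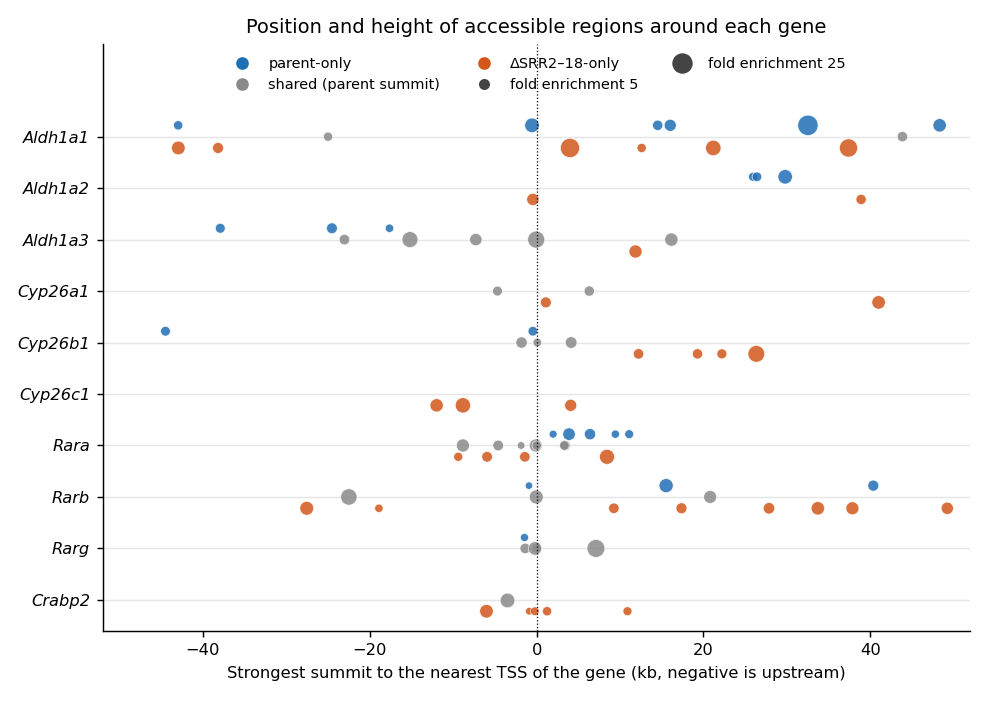
Distance of the strongest summit from the nearest TSS of its gene (x axis, kb) for every region of the 10 genes (rows), with blue for parent-only, grey for shared (drawn at the parent summit) and orange for deletion-only regions, and a marker area that grows with fold enrichment. The deletion-only regions of *Cyp26b1* all lie downstream, from 12.2 to 26.3 kb, and those of *Rarb* spread from 27.6 kb upstream to 49.2 kb downstream.

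The receptor genes held the most regions. *Rara*, which is expressed in most tissues, had 12 in each list. Reads at its *Rara-204* start were the most of any shared region described here, 3789 in parent NSPCs (1918 at equal depth) and 1691 in ΔSRR2–18 NSPCs, a ratio of 0.882 (95% interval 0.832 to 0.934). Around *Rara-202* the parent region had 1626 reads (823 at equal depth), and the ΔSRR2–18 regions on either side of the DR5 had 974 and 803 reads. By fold enrichment, the highest shared *Rara* region was 8.84 kb upstream of *Rara-202* in parent NSPCs (11.6). *Rara* also differed inside the gene. Parent NSPCs alone had an intronic region 3.88 kb from *Rara-203* (chr11:98930831-98932094, fold enrichment 10.5, 3047 reads), and 1 with 4525 reads 6.4 kb from *Rara-202*. ΔSRR2–18 NSPCs alone had an intronic region 8.43 kb from *Rara-207* (chr11:98947801-98948504, fold enrichment 15.8, 1445 reads).

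*Rarb* is the receptor gene most often used as a readout of retinoic acid. Its promoter region, the only 1 of all 112 with a DR5 within 100 bp of the strongest summit in each list, was open in both genotypes. It had 2526 parent reads (1278 at equal depth, chr14:16574885-16575946) and 957 ΔSRR2–18 reads (chr14:16574708-16575946), a ratio of 0.749 (95% interval 0.694 to 0.807), beside a median ratio of 0.816 over all shared regions. A weak parent-only region 921 bp upstream of *Rarb-207* (chr14:16576594-16576861) had a fold enrichment of 2.71. Deletion-only regions numbered 8, all in introns. The highest lay 27.6 kb upstream of *Rarb-207* (chr14:16603123-16603663, fold enrichment 13.1, 390 reads), while the highest of the 3 parent-only ones lay 15.5 kb inside the gene (chr14:16559439-16560338, fold enrichment 13.7, 890 reads, 450 at equal depth). The highest shared region, 22.5 kb upstream of *Rarb-207*, had a fold enrichment of 19 in parent and 17.6 in ΔSRR2–18 NSPCs.

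*Rarg* had no deletion-only region. Its 3 ΔSRR2–18 regions all overlapped parent regions, and a single parent region, 1.49 kb beyond the upstream start (chr15:102258810-102259316, fold enrichment 3.59, 389 reads), overlapped none. At the upstream start there were 1319 parent reads (668 at equal depth) and 369 ΔSRR2–18 reads. The ratio was 0.553 (95% interval 0.491 to 0.621), between summits 477 bp apart. Around the downstream start the parent list had 2 regions, of 1901 and 2460 reads (962 and 1245 at equal depth). The ΔSRR2–18 list had 1 there, of 1670 reads, which entered both ratios (1.74 and 1.34). The summits compared lay 550 and 797 bp apart. The highest *Rarg* region, 7.11 kb inside the gene, had a fold enrichment of 22.9 in parent and 21.8 in ΔSRR2–18 NSPCs.

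Beyond its promoter, *Crabp2* had a deletion-only region 6.01 kb upstream (chr3:87942416-87942909, fold enrichment 12.7, 955 reads) and another 10.9 kb downstream (fold enrichment 4.69, 516 reads). Its sole parent region, 3.6 kb upstream (chr3:87944664-87945442), was shared and had a fold enrichment of 15 and 1273 reads, or 644 at equal depth. In ΔSRR2–18 NSPCs it had a fold enrichment of 2.84 and 362 reads.

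Regions found in both lists were compared by their summit reads, with the parent reads scaled to the ΔSRR2–18 depth.  Of 27 shared regions, 4 were over 2-fold higher in ΔSRR2–18 NSPCs and 4 over 2-fold lower, that is 14.8% each way. Over all 30232 shared regions within 50 kb of a protein-coding TSS, 12.9% were higher and 15% lower by the same rule. The median log2 ratio was −0.09 at these genes and −0.29 over all. Shared regions of the 10 genes thus passed 2-fold about as often as those of other genes.

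The lowest ratio of reads was upstream of *Aldh1a3*. There, 15.2 kb from the start in an exon of the gene model *Gm44753*, parent NSPCs had 2537 reads (1284 at equal depth) and ΔSRR2–18 NSPCs 200, a ratio of 0.156 (0.134 to 0.18). The fold enrichments were 18.1 and 7.62 (log2 ratio −1.25), a smaller difference than in reads. An intronic *Rara* region 8.84 kb upstream of *Rara-202* came next, at 3626 reads (1835 at equal depth) against 347 and a ratio of 0.189 (0.169 to 0.211). The others on the low side were *Rara* regions 4.61 kb (ratio 0.377, 0.33 to 0.429) and 1.86 kb (ratio 0.5, 0.425 to 0.584) upstream of *Rara-203*, the latter at the 2-fold limit, and the *Aldh1a3* promoter (ratio 0.51, 0.475 to 0.547).

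On the high side stood *Aldh1a1* and *Cyp26a1*. A region 43.8 kb beyond the upstream *Aldh1a1* start lay in an intron of *Aldh1a1* and an exon of *C730002L08Rik*. It had 270 parent reads (137 at equal depth) and 998 ΔSRR2–18 reads, a ratio of 7.3 (6.38 to 8.39). The summits compared there lay 178 bp apart. The *Cyp26a1* region 4.69 kb upstream had 235 (119 at equal depth) and 583, a ratio of 4.9 (4.21 to 5.73). Its fold enrichments were 5.92 and 11.3 (log2 ratio 0.93), which is under 2-fold. A second *Aldh1a1* region, 25 kb upstream in an intron of *C730002L08Rik*, had a ratio of 2.48 (2.05 to 3.01), between summits 302 bp apart. A *Rarb* intronic region 20.8 kb from the start had a ratio of 2.42 (2.2 to 2.66) in reads, yet its fold enrichment over local background was 11.3 in parent and 11 in ΔSRR2–18 NSPCs. The fifth highest, at the downstream *Rarg* start, reached 1.74 (1.62 to 1.85), between summits 550 bp apart.

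**Figure D4:**
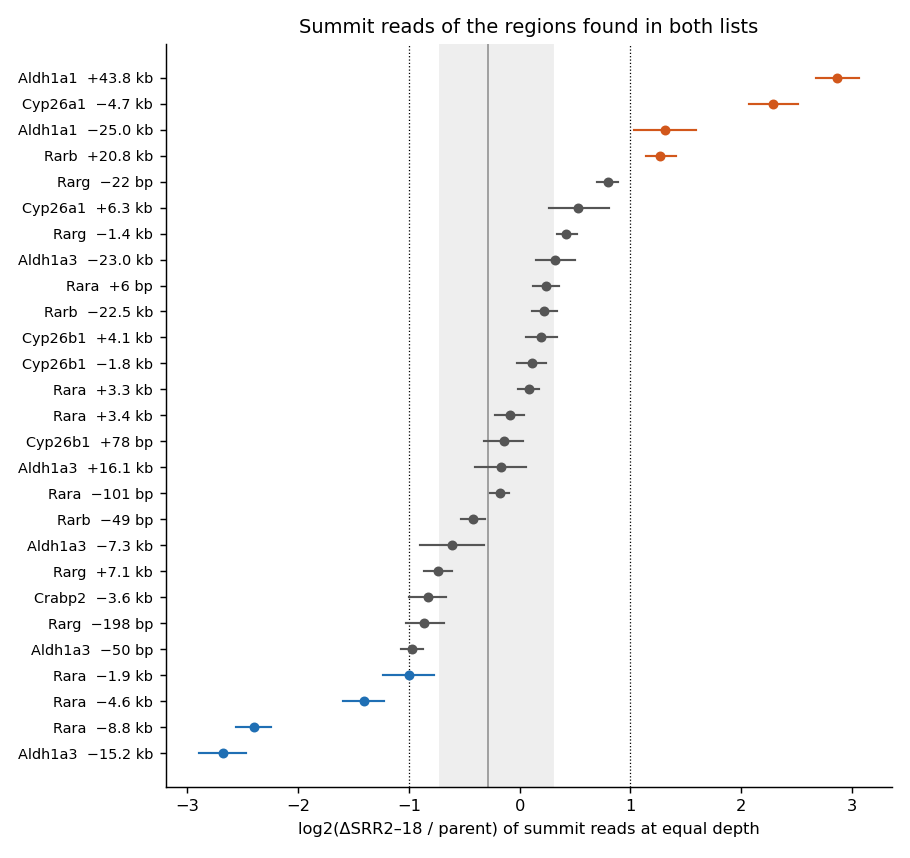
The log2 ratio of ΔSRR2–18 to parent summit reads at equal depth (x axis) for the 27 shared regions (rows, by gene and distance from the TSS), with exact 95% intervals for counting error. Dotted lines mark a 2-fold difference, and the grey band and line give the quartiles and the median (−0.29) of all 30232 shared regions. Orange marks the 4 regions over 2-fold higher, blue the 4 lower, with *Aldh1a1* at 43.8 kb on top and *Aldh1a3* at 15.2 kb upstream at the bottom.

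Short motifs near the summits were set beside those of all regions of the same class. A match had to be exact, both strands were searched, and the window reached 100 bp to each side of the summit. The AP-1 motif (TGAGTCA or its complement TGACTCA), bound by FOS and JUN proteins, stood in 13 of 35 deletion-only regions (37.1%) beside 42.6% over all of that class, and in 0 of 23 parent-only ones beside 2.4%. A SOX motif (ACAATG) was found at 4 of 23 (17.4%) where only parent NSPCs had the region and at 5 of 35 (14.3%) where only ΔSRR2–18 NSPCs did, beside 15.2% and 10.6%. A HOX-PBX motif (TGATNNAT) stood in 1 of 23 (4.35%) and 4 of 35 (11.4%), beside 5.69% and 14.6%. These counts are small and read as near the share of their class.

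Within the deletion-only regions the AP-1 matches were not spread evenly over the genes. All 4 at *Cyp26b1* held 1, as did 4 of 8 at *Rarb*, 2 of 3 at *Cyp26c1*, 1 of 2 at *Cyp26a1*, 1 of 5 at *Crabp2* and 1 of 6 at *Aldh1a1*, whereas the 4 at *Rara*, 2 at *Aldh1a2* and 1 at *Aldh1a3* held none. With so few regions a gene, this is a description. No promoter region open only in ΔSRR2–18 NSPCs held an AP-1 match in this window. The sequences below run 50 bases to either side of the strongest summit, along the strand of the gene, and show the tallest deletion-only regions of 2 clearance genes and a shared region on each side of the ratios, with any AP-1, SOX or HOX-PBX match in capitals. At *Aldh1a1* the window is that of the ΔSRR2–18 summit, and the parent summit, 302 bp away, lay outside it. The HOX-PBX match at *Cyp26c1* is on the opposite strand, so its capitals show the reverse complement of the motif.
*Cyp26b1*, deletion-only, chr6:84561296-84561396, minus strand, AP-1: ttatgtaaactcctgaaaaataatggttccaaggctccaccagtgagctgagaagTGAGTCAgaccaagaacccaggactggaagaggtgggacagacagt
*Cyp26c1*, deletion-only, chr19:37676694-37676794, plus strand, HOX-PBX: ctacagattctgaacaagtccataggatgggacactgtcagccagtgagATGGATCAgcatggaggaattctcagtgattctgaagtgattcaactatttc
*Aldh1a1*, shared and 2.48 times higher in ΔSRR2–18 NSPCs, chr19:20467965-20468065, plus strand, AP-1: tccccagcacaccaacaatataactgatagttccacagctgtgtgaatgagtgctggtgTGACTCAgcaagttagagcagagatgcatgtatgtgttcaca
*Aldh1a3*, shared with a ratio of 0.156, chr7:66442652-66442752, minus strand, SOX: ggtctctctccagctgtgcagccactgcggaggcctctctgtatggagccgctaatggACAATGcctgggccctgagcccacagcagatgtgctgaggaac

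**Figure D5:**
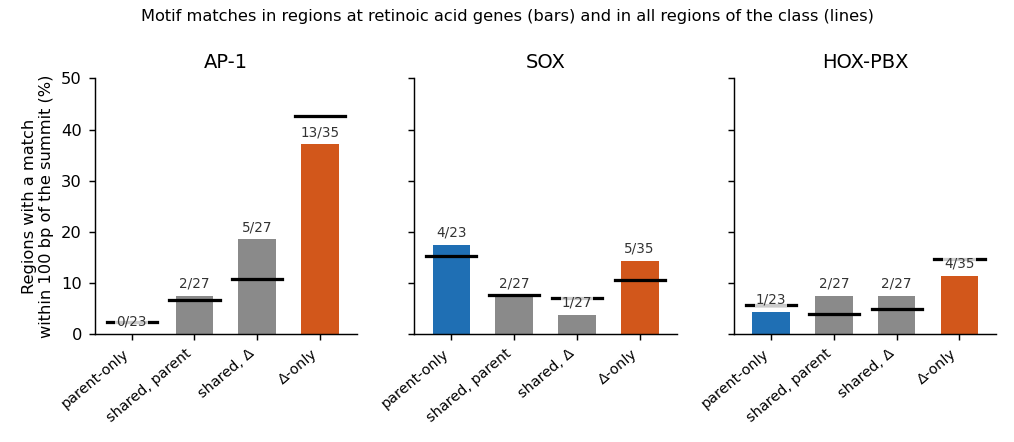
Share of regions with an AP-1, SOX or HOX-PBX match within 100 bp of the summit (y axis, %) in parent-only, shared and deletion-only (Δ-only) regions of the retinoic acid genes, with the number of regions above each bar. Black lines give the share over all regions of the class within 50 kb of a protein-coding TSS, and AP-1 goes from 0 of 23 to 13 of 35 regions beside 2.4% and 42.6%.

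Genotype-only regions were also counted at other genes of the pathway. The 19 examined include genes of uptake and storage (*Rbp4*, *Stra6*, *Lrat*), cleavage of carotene (*Bco1*), oxidation and reduction of retinol and retinal (*Rdh10*, *Rdh11*, *Dhrs3*, *Dhrs4*, *Adh5*, *Cyp1b1*), binding (*Crabp1*, *Fabp5*), the RXR partners and coregulators (*Ncor1*, *Nrip1*). They held 94 parent regions, 43 of them (45.7%) parent-only, and 104 ΔSRR2–18 regions, 52 of them (50%) deletion-only. The shares over all regions within 50 kb of a protein-coding TSS were 45% and 53%, so these counts are near the background. More deletion-only than parent-only regions were found at 8 genes, fewer at 4 and equal numbers at 7. *Rxrg*, which encodes the RXR partner of narrowest expression, had 6 regions in the ΔSRR2–18 list alone and 0 in the parent list alone. It alone of the 19 had an open promoter in ΔSRR2–18 NSPCs only (15 and 16 genes with an open promoter in all), as did 6.07% of protein-coding genes. *Stra6*, the receptor for retinol uptake, had 1 in the parent list alone and 5 in the ΔSRR2–18 list alone, and *Cyp1b1* had 5 and 9. Among the genes that went the other way, *Rxra* had 6 in the parent list alone and 3 in the ΔSRR2–18 list alone, and *Rdh10* had 4 and 2.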

How the data were processed

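ATAC-seq was made by the authors from 3 cultures of each genotype. Per the paper's methods, the ENCODE pipeline for ATAC-seq (version 1.10.0) was run, peaks were called with MACS2 and cultures were combined by IDR. Further settings are not given in the sources used here. The authors deposited, peak by peak, the fold enrichment over local background, the −log10 p-value, the IDR score and the summit. The lists are in mm10, and alleles were not separated. The conservative lists were used, with the optimal lists as an alternative. Summit reads (the height of stacked reads) and the background were obtained by solving the Poisson model of MACS2. The ratio of the lowest backgrounds, 38.8 reads in parent and 19.7 in ΔSRR2–18 NSPCs, served as the depth ratio. Depth by culture could not be read from pooled lists.

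TSSs were those of GENCODE M21 basic, protein-coding, and an overlap of 1 bp made regions shared. Motifs were read from GRCm38, and promoters from RefSeq. Intervals were exact (95%). Work was done in Python 3.11.15 with pandas 2.3.3, numpy 2.4.6 and scipy 1.17.1, and tested on simulated data. With pooled lists no test between genotypes was made. Named were all regions within 1 kb of a TSS of the 10 genes, the region of highest fold enrichment of each class, every DR5 region, the 5 highest and 5 lowest shared ratios, and the 4 other pathway genes with the largest difference, of which 1 is not reported here. The DR2, *Rxra*, *Rdh10* and the regions beyond these were chosen after their values were seen. The members and lists were chosen with earlier results of these data known.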

Additional observations from a re-analysis of the deposited data

How the results depend on the processing

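The limits are those of 1 pooled list per genotype at unequal depth, from 1 clone each. No paired analysis was possible because the deposited lists are pooled over the cultures. The open promoters (6 and 8 genes) had the same counts with the optimal lists, an IDR score of at least 830 and a promoter distance of 2.5 kb. With both lists at equal length, chosen after seeing the data, they were 6 and 6 by fold enrichment and 6 and 7 by −log10 p. Of 29 alternative counts of parent-only, deletion-only and shared regions, 26 stayed within 1.5 times. At a gene distance of 10 kb there were 8 parent-only and 14 deletion-only regions, and 15 and 16 at the other pathway genes. Cutting both lists to equal length by fold enrichment left 17 shared. Only 2 shared regions were over 2-fold higher by fold enrichment in place of reads, and 2 among summits within 150 bp of each other. Both *Aldh1a1* regions, with summits 178 and 302 bp apart, dropped out of the latter. With the depth ratio of 2.34 from the median local background, 5 shared regions were over 2-fold higher and 3 lower. By fold enrichment 2 ratios changed sign, *Rara* at 1.86 kb upstream (log2 0.07) and *Rarb* at 20.8 kb (log2 −0.04), which differ from reads in being divided by the local background. The difference between deletion-only and parent-only counts turned to 1 at *Aldh1a2* and −1 at *Cyp26b1* at 10 kb, and to 1 at *Aldh1a3* with the nearest TSS of any gene. With lists of equal length this difference turned to −1 at *Cyp26b1* by fold enrichment but was 1 by −log10 p. It fell to 0 at *Crabp2* and grew to −8 at *Rara* with lists of equal length by fold enrichment, and fell to 0 at *Rarb* at 10 kb. The DR5 count fell to 0 within 50 bp of the summit and 0 outside promoters, and the SOX count to 7 within 50 bp. Over whole intervals there were 1 DR2, 32 AP-1, 33 SOX and 23 HOX-PBX regions.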

Other observations

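Between 50 and 200 kb from a TSS, 21 regions of the parent list had one of the 10 genes as the nearest, 16 of them (76.2%) parent-only, beside 65.1% of all 20729 parent regions at that distance. The ΔSRR2–18 list had 32, 27 of them (84.4%) deletion-only, beside 74.5% of all 28505. Regions that far from a gene were thus mostly of 1 genotype at other genes too. At *Cyp26b1* 8 parent and 9 ΔSRR2–18 regions lay at that distance, and none was shared, which is a description of few regions beside those shares. The highest had a fold enrichment of 16.9 in parent NSPCs (chr6:84692784-84693787, 99.5 kb upstream) and 24.8 in ΔSRR2–18 NSPCs (chr6:84645930-84646622, 52.4 kb upstream). *Rarb* had 9 and 13, of which 6 and 10 were genotype-only. *Aldh1a2* had 0 parent and 4 ΔSRR2–18 regions, the highest at a fold enrichment of 22.7 (chr9:71288611-71289307, 73.2 kb downstream). A deletion-only region 124 kb downstream of *Cyp26a1* (chr19:37821155-37822200) had the highest fold enrichment of this distance range, 25.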
